A study of Mus musculus with 8 samples.

Results

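The genes that carry out bulk and quality-control decay of mRNA were read across 8 RNA-seq libraries of vascular smooth muscle cells (VSMCs) taken as primary cultures from mice; in the artery wall these cells contract and set vessel tone. They were taken by name: the rows for the exosome subunits (Exosc), DIS3 nucleases, CCR4-NOT subunits (Cnot), PAN2 and PAN3, decapping factors (Dcp, Edc), LSM1 to LSM8, XRN1 and XRN2, the nonsense-mediated decay factors (Upf, Smg, Casc3), the cap-binding proteins (Ncbp) and the Zfp36 family. This rule found 57 of the 27249 genes in the table, and all 57 passed the filter of at least 1 normalized count in at least 2 libraries, as 22575 genes did. Exosc6 was not analysed here.

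The libraries fall into 4 groups of 2: THOC5-overexpressing cells in osteogenic medium, THOC5-overexpressing cells in growth medium, GFP-overexpressing cells in osteogenic medium and GFP-overexpressing cells in growth medium. THOC5 is a subunit of the THO complex, which couples transcription to mRNA export. GFP cells are given as wild type and THOC5 cells as overexpressing by genotype. Each group carries an overexpressed gene, and no group is free of one. The titles of the osteogenic libraries carry Pi, the usual sign for inorganic phosphate, which turns smooth muscle cells towards a bone-like state. The series design gives 6 days of it for THOC5 cells and names no time for GFP cells. The strain, age and number of animals, the vector, and whether the 2 libraries of a group came from separate cultures were not stated in the sources used here.

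Messenger RNA decay usually starts with shortening of the poly(A) tail by PAN2-PAN3 and CCR4-NOT. The body is then degraded from the 3′ end by the exosome, a barrel of non-catalytic subunits that carries nucleases. These are mainly DIS3 and EXOSC10 in the nuclear exosome and DIS3L in the cytoplasmic one. The other route is decapping by DCP2 with the LSM1-7 ring, followed by degradation from the 5′ end by XRN1. Nonsense-mediated decay (NMD) uses UPF1 and the SMG proteins to remove transcripts on which translation ends early, and the ZFP36 proteins bind AU-rich elements and recruit CCR4-NOT to cytokine and growth-factor mRNAs.

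Each library held between 7058681 and 10581042 reads in genes, and 1 read was worth 0.865 to 1.33 normalized counts. Thoc5 itself, the check of the labels, stood at 1780.2 and 1937 normalized counts in THOC5 cells in osteogenic medium and at 2155 and 1406 in THOC5 cells in growth medium. GFP cells held 649.5 and 615 in osteogenic medium and 458 and 471 in growth medium. On the first principal component of all genes the 2 GFP osteogenic libraries lay at 84.2 and 65.9 and the other 6 between -34.8 and -18.4. On the second, GFP growth replicate 2 stood apart at -71.8. Of all genes tested 10.6% were called lower in GFP osteogenic than in GFP growth libraries. With a filter of at least 10 normalized counts in at least 2 libraries this share was 19.2%. Of 8 smooth muscle markers, 6 fell in GFP osteogenic libraries. The other 2, Myocd and Des, were not called and had log2 changes above 0, up to 1.08. The summed level of the list was 11925 to 13801 normalized counts in GFP osteogenic libraries, against 24495 to 28391 in GFP growth libraries. It was 24999 to 26851 in THOC5 osteogenic and 30387 to 31012 in THOC5 growth libraries. Of 5 adventitial fibroblast markers 3 (Dcn, Lum and Pdgfra) fell in GFP osteogenic libraries, where the list summed to 4703 to 6564, against 14674 to 17057 in GFP growth libraries; it was 15186 to 16458 in THOC5 osteogenic and 18567 to 19316 in THOC5 growth libraries. The leucocyte markers Ptprc and Adgre1 lay between 0 and 1.88 normalized counts in all 8 libraries, while Csf1r, of the macrophage list, lay between 64.9 and 102. Of the macrophage list Cd68 rose and Cd14 fell in GFP osteogenic libraries. That list summed to 532 to 553 there, against 726 to 943 in GFP growth libraries. Of 4 measured endothelial markers only Vwf was called in GFP cells, and it fell. The log2 changes of 2 of the 4 lay above 0, up to 1.20. The endothelial list summed to 36.7 to 55.4 in GFP osteogenic and 75.8 to 117 in GFP growth libraries. These shifts move with the results that follow, and their part in them was not tested. In bulk RNA, fewer cells of a type and less RNA per cell cannot be told apart.

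In GFP cells, osteogenic medium raised 14 of the 57 decay genes and lowered 3 (limma, Benjamini-Hochberg adjusted p under 0.05 over all genes tested). The risen genes were Exosc1, Exosc2, Exosc5, Exosc9, Dis3, Lsm1, Lsm8, Dcp2, Xrn2, Ncbp1, Upf1, Smg8, Cnot4 and Cnot9, by log2 changes of 0.38 to 1.19. The fallen genes were Zfp36, Zfp36l1 and Smg6, by log2 changes of -0.42 to -0.33. The 17 genes are 29.8% of the members, beside a background of 20.8% of all genes tested, of which 10.3% were higher and 10.6% lower. The decay genes are well measured, and among the 13898 genes with at least 10 normalized counts in at least 2 libraries the order turned round: 18 of the 57 were called (31.6%), beside 38.0% of all such genes. There, 15 members (26.3%) were higher and 3 (5.26%) lower, beside 18.8% higher and 19.2% lower of all genes. The median log2 change of the members was 0.16, beside 0.00 for all genes tested, and 42 of 57 lay above 0. When libraries were scaled to their totals instead, the median of all genes moved to 0.13 and that of the members to 0.31. Then 25 members were higher and 0 lower, beside 3721 higher and 1687 lower of all 22575 genes tested. Leaving out GFP osteogenic replicate 1 left 7 calls, leaving out GFP growth replicate 1 left 11, and leaving out GFP growth replicate 2 left 7.

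In THOC5 cells the same change of medium moved no decay gene past the threshold. limma called 0 of 57, with 2 at an unadjusted p under 0.05, and edgeR and DESeq2 on the recovered reads also called 0, beside a background of 0.540% of all genes tested. The 14 genes that rose in GFP cells had log2 changes of -0.25 to 0.25 in THOC5 cells, with a median of -0.06. The 3 that fell had changes of 0.01 to 0.08. The THOC5 and GFP responses share no library.

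**Figure D1:**
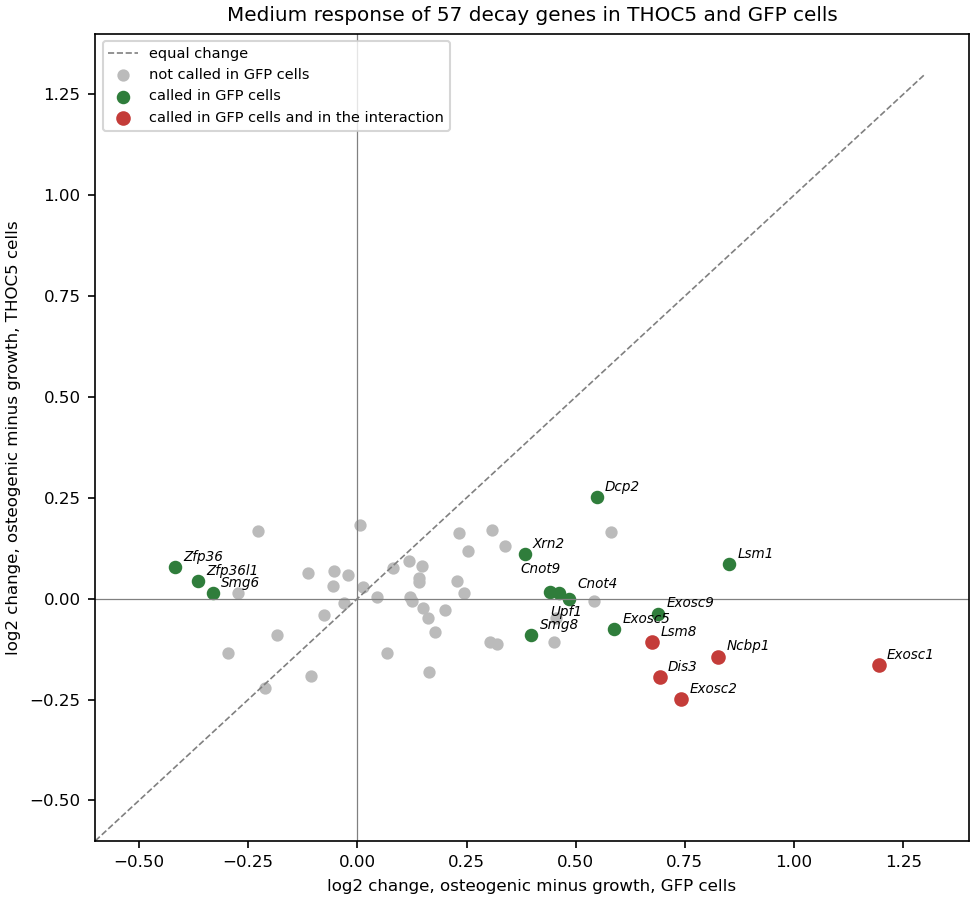
Log2 change with osteogenic medium of each of the 57 decay genes in THOC5 cells (y axis) and in GFP cells (x axis), from the limma fit. Each point is a gene, red where the difference of the responses was also called, green where only the GFP response was, grey otherwise. The called genes run from -0.42 to 1.19 along x, while all 57 stay between -0.25 and 0.25 along y.

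THOC5 against GFP cells in osteogenic medium gave 15 decay genes lower and 4 higher. The lower genes were Exosc1, Exosc2, Exosc9, Dis3, Lsm1, Lsm8, Dcp2, Xrn2, Ncbp1, Upf1, Smg5, Smg8, Cnot4, Cnot7 and Cnot9, and the higher ones Zfp36, Zfp36l1, Smg6 and Pan2. The 19 genes are 33.3% of the members, beside a background of 22.0%, of which 11.3% were higher and 10.7% lower. With the filter of 10 counts 21 members were called (36.8%), of which 29.8% were lower and 7.02% higher. The background was then 39.9%, with 20.5% higher and 19.3% lower. The median log2 difference of the members was -0.14, beside 0.00 for all genes. Scaled to library totals the medians were -0.31 for members and -0.16 for all genes. Then 1 member was higher and 23 lower, beside 1662 higher and 4065 lower of all 22575 genes tested. Leaving out THOC5 osteogenic replicate 1 left 11 calls, leaving out THOC5 osteogenic replicate 2 left 4, and leaving out GFP osteogenic replicate 1 left 7. This contrast and the GFP response both contain the GFP osteogenic libraries, so the opposite signs of a gene in them are not independent.

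In growth medium THOC5 and GFP cells did not differ in any decay gene by limma: 0 of 57 were called, with 1 at an unadjusted p under 0.05, and edgeR and DESeq2 also called 0. The background was 0.00443%, which is 1 gene, Thoc5. The log2 differences of the members ran from -0.22 to 0.60, the highest being that of Dcp1b, the least abundant member per length (SE 0.23, adjusted p = 0.91).

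The test of the difference between the medium responses called 5 decay genes, each with a lower response in THOC5 than in GFP cells: Exosc1, Exosc2, Ncbp1, Dis3 and Lsm8. They are 8.77% of the members, beside a background of 9.22% (3.92% lower), a share near the background. With the filter of 10 counts 10 members were called (17.5%), 1 higher and 9 lower (15.8% lower), beside 20.2% of all genes and 8.89% lower. Leaving out THOC5 osteogenic replicate 2 left 1 call, GFP osteogenic replicate 1 left 2, and either GFP growth library left 0.

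**Figure D2:**
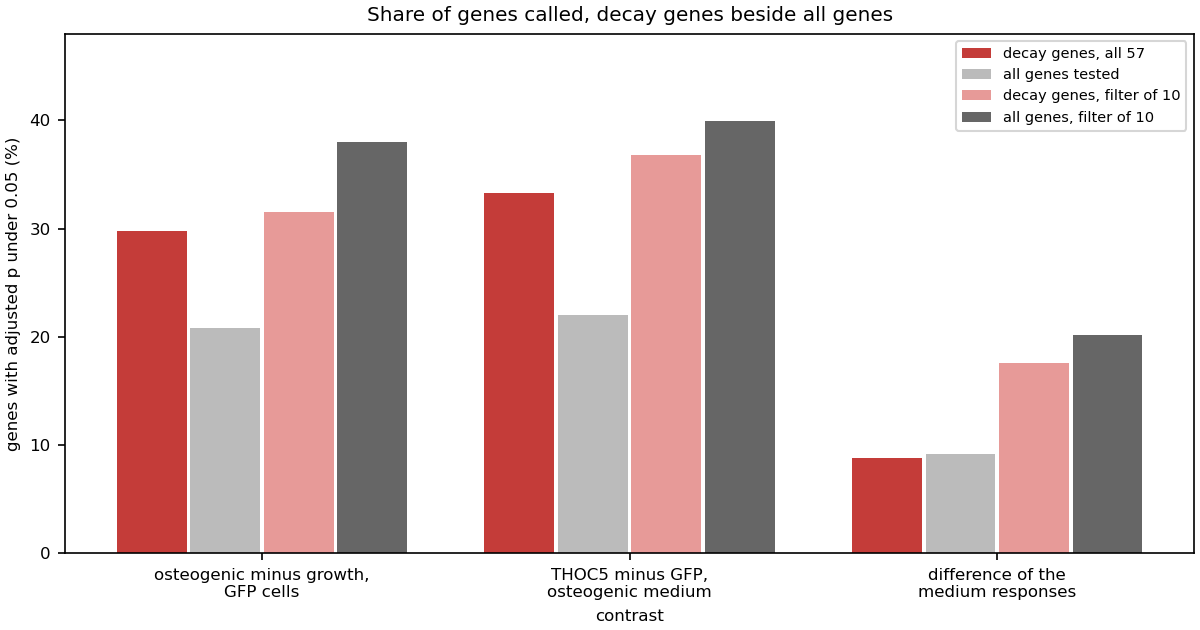
Percentage of genes with an adjusted p under 0.05 (y axis) in 3 contrasts (x axis), for the 57 decay genes and for all genes, with the filter of at least 1 normalized count in at least 2 libraries (red and light grey) and with that of at least 10 (pink and dark grey). The decay genes stand above all genes under the first filter in the GFP response (29.8% against 20.8%) and below them under the second (31.6% against 38.0%).

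Among the role groups the exosome ring had the highest median change in the GFP response, 0.52, beside 0.50 for the LSM genes. Whether these groups differ was not tested. The exosome ring subunits form the barrel and cap through which RNA is threaded. In GFP cells 4 of 8 rose and none fell, with a median log2 change of 0.52 and all 8 above 0, beside 10.3% of all genes higher, or 18.8% with the filter of 10 counts. In osteogenic medium 3 of 8 were lower in THOC5 than in GFP cells (median -0.47). Of all genes 10.7% were lower in that contrast, or 19.3% with the filter of 10 counts. Summed over the 8 genes, the ring held 1050 and 1008 normalized counts in THOC5 osteogenic, 1110.2 and 1098 in THOC5 growth, 1658 and 1394 in GFP osteogenic and 1044 and 1001 in GFP growth libraries. Exosc1 (CSL4, a cap subunit; chromosome 19, 41922292 to 41933423, GRCm38) had 102 and 89.2 normalized counts in THOC5 osteogenic, 114 and 100.3 in THOC5 growth, 222 and 196 in GFP osteogenic and 101 and 81.1 in GFP growth libraries. Both GFP osteogenic libraries thus lay above the other 6, which overlapped one another. Its log2 change was 1.19 ± 0.16 (SE) in GFP cells (adjusted p = 0.00041), -0.16 ± 0.16 in THOC5 cells, and the difference of the responses was -1.36 ± 0.23 (adjusted p = 0.0050).

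Exosc2 (RRP4, another cap subunit; chromosome 2, 31670715 to 31681349) stood at 126 and 117 normalized counts in THOC5 osteogenic, 140.0 and 149.9 in THOC5 growth, 238 and 199 in GFP osteogenic and 136 and 124 in GFP growth libraries. Again the GFP osteogenic pair was highest. It rose by 0.74 ± 0.14 in GFP cells (adjusted p = 0.0027), and the difference of the responses was -0.99 ± 0.19 (adjusted p = 0.0099). Of its exon bases 12.4% are shared with Gm13427, from which these reads cannot be separated. Exosc9 (PM/Scl-75, a ring subunit) had 202 and 199 normalized counts in THOC5 osteogenic, 227 and 186 in THOC5 growth, 357 and 306 in GFP osteogenic and 232 and 181 in GFP growth libraries. It rose by 0.69 ± 0.15 in GFP cells (adjusted p = 0.0068), while its difference of responses missed the threshold (adjusted p = 0.054). Of the exon bases of Exosc9, 10.8% lie in Ccna2, a neighbour.

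Exosc5 (RRP46, a ring subunit) rose by 0.59 ± 0.18 in GFP cells (adjusted p = 0.044) and had 158 and 111 normalized counts in GFP osteogenic libraries, against 92.1 and 83.7 in GFP growth libraries. This call was lost in 11 of 19 alternative settings, where its adjusted p reached 0.32. Exosc3, Exosc4, Exosc7 and Exosc8 did not pass in any contrast. In Exosc4 the GFP osteogenic libraries themselves differed, at 222 and 132 normalized counts.

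Of the 4 nucleases in or related to the exosome, 1 rose in GFP cells, beside 10.3% of all genes higher, or 18.8% with the filter of 10 counts. Dis3 (chromosome 14, 99075206 to 99099770), the processive exonuclease and endonuclease at the base of the nuclear exosome, had 416 and 388 normalized counts in THOC5 osteogenic, 491 and 429.8 in THOC5 growth, 719 and 655 in GFP osteogenic and 432 and 416 in GFP growth libraries. It rose by 0.69 ± 0.10 in GFP cells (adjusted p = 0.00067) and was 0.77 lower on the log2 scale in THOC5 than in GFP osteogenic libraries (-0.77 ± 0.10, adjusted p = 0.00031). Exosc10 (RRP6), the distributive nuclease of the nuclear exosome, had a change of 0.24 ± 0.11 in GFP cells (adjusted p = 0.16). Pibf1 shares 4.19% of the exon bases of Dis3. Dis3l, the cytoplasmic counterpart of Dis3, and Dis3l2, which degrades uridylated RNA without the exosome, did not pass either.

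Sequence just before the annotated start is shown for genes whose medium responses differed between THOC5 and GFP cells. They were picked by that test in these data, and shared control was not tested. The printed stretch is the longest run in the 250 bases before the RefSeq start (GRCm38.p6) that holds no annotated exon, 5′ to 3′ on the gene's strand, with motif matches in capitals. It spans chr2:31670465-31670714 (+) for Exosc2, chr6:18848385-18848578 (+) for Lsm8 and chr19:41933424-41933479 (-) for Exosc1.
Exosc2: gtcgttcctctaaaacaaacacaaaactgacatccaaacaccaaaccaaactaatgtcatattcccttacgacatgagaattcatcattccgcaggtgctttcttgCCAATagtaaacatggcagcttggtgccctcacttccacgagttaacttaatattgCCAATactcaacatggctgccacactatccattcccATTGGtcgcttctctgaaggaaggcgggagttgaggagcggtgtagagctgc
Lsm8: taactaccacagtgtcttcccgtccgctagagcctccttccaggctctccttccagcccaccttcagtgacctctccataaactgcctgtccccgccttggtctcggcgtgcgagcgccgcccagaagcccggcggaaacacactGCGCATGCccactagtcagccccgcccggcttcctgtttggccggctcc
Exosc1: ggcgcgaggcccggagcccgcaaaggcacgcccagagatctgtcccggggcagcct
The Exosc2 stretch holds 3 matches to CCAAT, the NF-Y core, on either strand, starting 144, 88 and 52 bases before the start, and the Lsm8 stretch holds 1 match to GCATGCGC, part of the NRF1 motif, starting 105 bases before it. The 56 bases shown for Exosc1 hold no match, but its full 250-base window holds CCAAT outside them, as does the window of Dis3. The windows of Exosc1, Dis3 and Ncbp1 overlap exons of Zdhhc16, Pibf1 and Tstd2, so for Dis3 and Ncbp1 no run was long enough to show. Promoters were matched for 46 of the 57 members, giving 56 windows of 250 bases, against 32851 windows in all. CCAAT occurred in 26.8% of member windows and 33.8% of all windows. GCATGCGC occurred in 10.7% and 2.26%, and CCGGAAG, an ETS-family site, in 19.6% and 6.91%. The windows of Dis3 and Ncbp1, not printed above, were among those with CCGGAAG. TGACNNNGC, bound by NRF2, occurred in 12.5% and 10.2%, CACGTG, the E-box, in 3.57% and 6.02%, and TGACGTCA, the CRE, in 1.79% and 1.55%. TGATGCAA, bound by ATF4 with C/EBP proteins, occurred in 0 member windows and 0.791% of all windows. Both strands were searched, and none of these motifs contains another. These are descriptions of letters in a window.

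**Figure D3:**
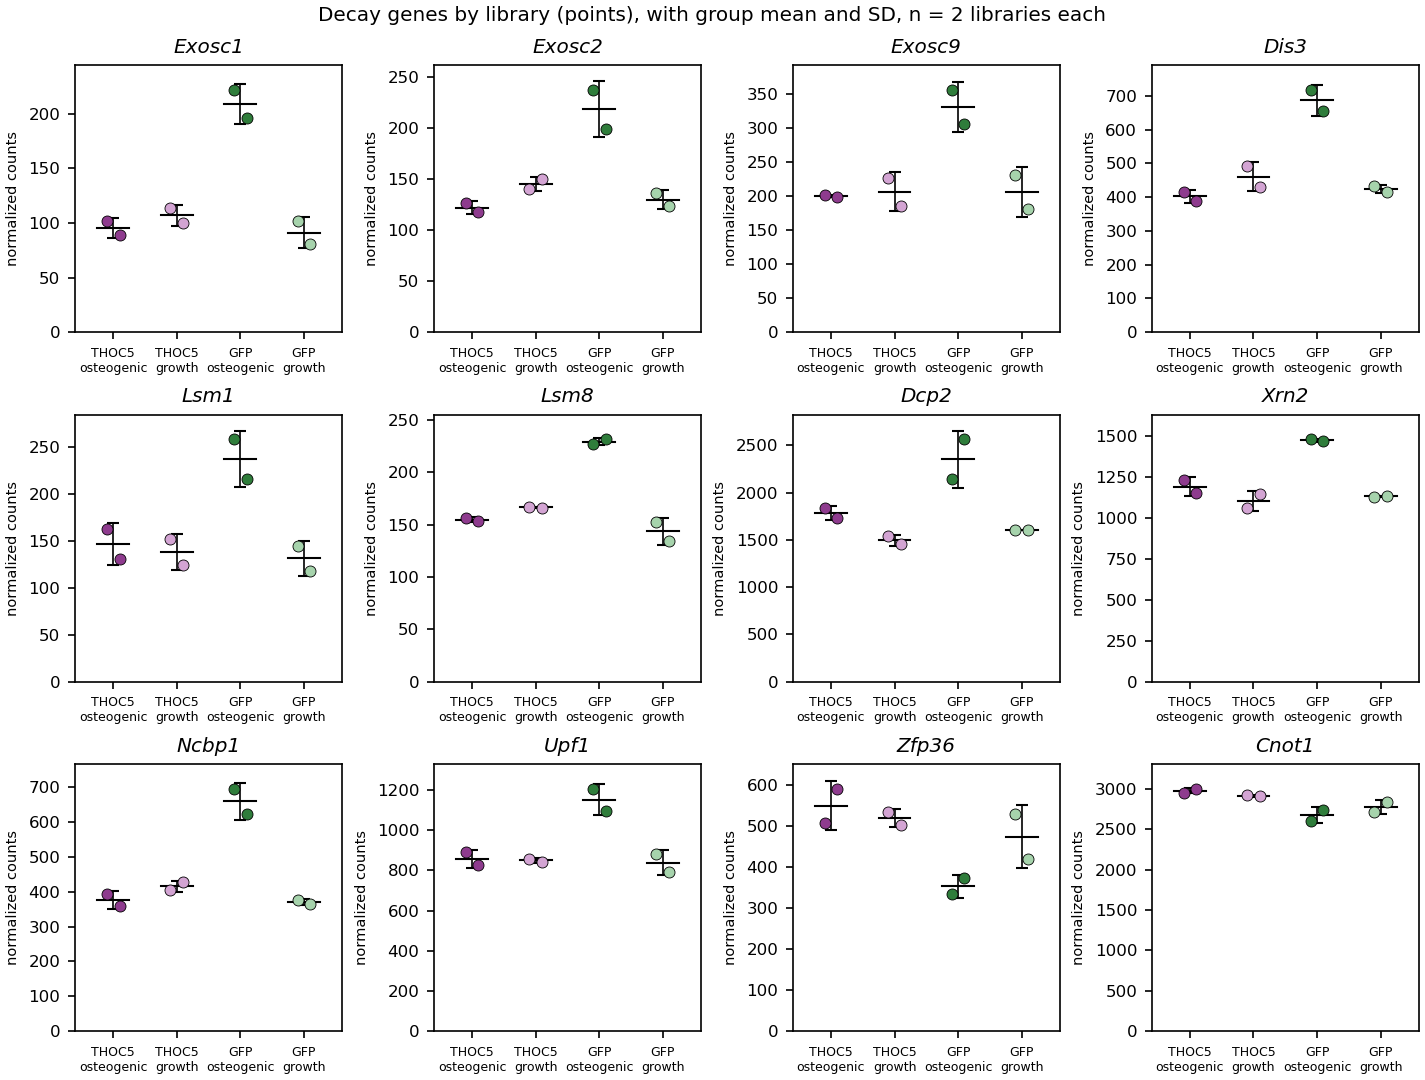
Normalized counts (y axes, from 0) of 12 decay genes in each of the 8 libraries (points), with the mean and SD of each group of 2 (lines). In Exosc1, Exosc2, Exosc9, Dis3, Lsm1, Lsm8, Dcp2, Xrn2, Ncbp1 and Upf1 both GFP osteogenic libraries are the highest of the 8, in Zfp36 they are the lowest, and in Cnot1 all lie between 2608 and 3007.

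In GFP cells 1 of 5 decapping genes and 2 of 8 LSM genes rose, with group medians of 0.16 and 0.50. Of all genes 10.3% were higher, or 18.8% with the filter of 10 counts. DCP2 is the enzyme that removes the cap. Dcp2 had 1836 and 1728 normalized counts in THOC5 osteogenic, 1538 and 1454 in THOC5 growth, 2141 and 2566 in GFP osteogenic and 1600.1 and 1606 in GFP growth libraries. It rose by 0.55 ± 0.09 in GFP cells (adjusted p = 0.0020). In THOC5 cells its change was 0.25 ± 0.09, the highest of the 57 members there, with an adjusted p of 0.79, and the difference of its responses missed the threshold (-0.30 ± 0.13, adjusted p = 0.21). Its activators Dcp1a, Dcp1b, Edc3 and Edc4 did not pass in any contrast.

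LSM1 marks the cytoplasmic ring that binds shortened tails before decapping, and LSM8 the nuclear ring that binds U6 snRNA; the rings share LSM2 to LSM7. Both of the distinguishing subunits rose in GFP cells and none of the 6 shared ones passed. Lsm1 had 163 and 130.5 normalized counts in THOC5 osteogenic, 152 and 124 in THOC5 growth, 259 and 216 in GFP osteogenic and 145 and 118 in GFP growth libraries, a rise of 0.85 ± 0.17 in GFP cells (adjusted p = 0.0042). Lsm8 had 156 and 153 normalized counts in THOC5 osteogenic, 167 and 166 in THOC5 growth, 227 and 232 in GFP osteogenic and 153 and 134 in GFP growth libraries, a rise of 0.67 ± 0.12 (adjusted p = 0.0022). In each gene the GFP osteogenic libraries were the highest. Of the shared subunits, Lsm3, Lsm4, Lsm5 and Lsm7, had changes of 0.31 to 0.58 with adjusted p of 0.12 to 0.25, and Lsm2 and Lsm6 had changes of -0.30 and -0.11, so values of the shared subunits were not uniform. Whether Lsm1 and Lsm8 differ from the shared subunits was not tested.

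Of the 2 genes for 5′ exonucleases 1, the nuclear one, rose in GFP cells. Of all genes 10.3% were higher there, or 18.8% with the filter of 10 counts. Whether the 2 genes differ in their response was not tested. Xrn2, the nuclear enzyme that also ends transcription, had 1232 and 1154 normalized counts in THOC5 osteogenic, 1063 and 1147 in THOC5 growth, 1483 and 1469.6 in GFP osteogenic and 1132 and 1133 in GFP growth libraries. It rose by 0.38 ± 0.08 in GFP cells (adjusted p = 0.0059). Xrn1, the cytoplasmic enzyme that degrades decapped mRNA, had 703 and 877 normalized counts in GFP osteogenic libraries, against 833 and 864 in GFP growth libraries, so the groups overlapped (-0.11 ± 0.11, adjusted p = 0.54).

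Of the 3 cap-binding genes 1 rose in GFP cells, beside 10.3% of all genes higher, or 18.8% with the filter of 10 counts. That gene, Ncbp1 (CBP80, chromosome 4, 46138613 to 46172403), had the smallest adjusted p of all 57 members in the GFP response. It stood at 394 and 359 normalized counts in THOC5 osteogenic, 405 and 427 in THOC5 growth, 696 and 623 in GFP osteogenic and 378 and 364 in GFP growth libraries. The 6 other libraries lay between 359 and 427. Its rise was 0.83 ± 0.10 in GFP cells (adjusted p = 0.00019), its THOC5-minus-GFP difference in osteogenic medium -0.81 ± 0.10 (adjusted p = 0.00020), and the difference of the responses -0.97 ± 0.14 (adjusted p = 0.0022). Of its exon bases 4.70% are shared with Tstd2. Its partner Ncbp2 (CBP20), the subunit that holds the cap, had a change of 0.12 ± 0.10 in GFP cells (adjusted p = 0.45), and Ncbp3 one of 0.14 ± 0.09 (adjusted p = 0.33).

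CCR4-NOT is the main deadenylase, with CNOT1 as scaffold and CNOT6, CNOT6L, CNOT7 and CNOT8 as nucleases. In GFP cells 2 of 11 subunits rose and none fell, with a median of 0.13. That is 18.2% called, beside 20.8% of all genes, or 38.0% with the filter of 10 counts. Cnot9, which binds recruiting proteins, rose by 0.44 ± 0.12 (adjusted p = 0.024) and Cnot4, a ubiquitin ligase, by 0.48 ± 0.10 (adjusted p = 0.0067). Cnot9 was lost in 8 of 19 alternative settings. None of the 4 nuclease genes passed there. In osteogenic medium Cnot7 was lower in THOC5 cells, at 523 and 474 normalized counts, than in GFP cells, at 690.2 and 705 (-0.48 ± 0.10, adjusted p = 0.0056). Cnot1 had 2956 and 3007 normalized counts in THOC5 osteogenic, 2925 and 2909.9 in THOC5 growth, 2608 and 2746 in GFP osteogenic and 2720.0 and 2843 in GFP growth libraries, and passed in no contrast. Gm6158 copies a stretch of 903 bases of Cnot1 with 99.8% identity, so reads from it could be counted for either. Pan2, the nuclease of PAN2-PAN3, was higher in THOC5 osteogenic libraries, at 337 and 327 normalized counts, than in GFP osteogenic libraries, at 239 and 273 (0.38 ± 0.11, adjusted p = 0.025). Pan2 lost its call in 6 of 19 alternative settings, and its partner Pan3 did not pass (0.00 ± 0.09).

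Of 11 NMD genes, 2 rose and 1 fell in GFP cells. That is 27.3% called, beside 20.8% of all genes, or 38.0% with the filter of 10 counts. Upf1, the helicase at the centre of the pathway, had 891 and 827 normalized counts in THOC5 osteogenic, 858 and 841 in THOC5 growth, 1207 and 1097 in GFP osteogenic and 881 and 794 in GFP growth libraries. It rose by 0.46 ± 0.09 in GFP cells (adjusted p = 0.0041), while its difference of responses missed the threshold (adjusted p = 0.053). Smg8, a regulator of the SMG1 kinase, rose by 0.40 ± 0.13 (adjusted p = 0.044), a call lost in 10 of 19 alternative settings. Smg6, the endonuclease that cuts NMD targets, had 711 and 783 normalized counts in GFP osteogenic libraries, against 865 and 1018 in GFP growth libraries (-0.33 ± 0.11, adjusted p = 0.047), and this call was lost in 14 of 19 settings. Smg5, which links NMD targets to deadenylation and decapping, was lower in THOC5 osteogenic libraries, at 523 and 449 normalized counts, than in GFP osteogenic libraries, at 672 and 615 (-0.41 ± 0.12, adjusted p = 0.026). Smg1, the kinase that phosphorylates UPF1, and Casc3, a factor of the exon junction complex, had changes of 0.12 ± 0.09 and 0.15 ± 0.09 in GFP cells and did not pass in any contrast.

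Of the 3 AU-rich element binding genes, Zfp36 and Zfp36l1 fell in GFP cells and Zfp36l2 did not pass. Of all genes 10.6% were lower there, or 19.2% with the filter of 10 counts. Zfp36 (tristetraprolin; chromosome 7, 28376784 to 28380253) had 508 and 592 normalized counts in THOC5 osteogenic, 535 and 504 in THOC5 growth, 334 and 374 in GFP osteogenic and 530.2 and 420.1 in GFP growth libraries. The GFP osteogenic libraries were the lowest. It fell by 0.42 on the log2 scale in GFP cells (-0.42 ± 0.13, adjusted p = 0.037, lost in 11 of 19 settings) and was 0.63 ± 0.13 higher in THOC5 than in GFP osteogenic libraries (adjusted p = 0.0042). Zfp36l1 had 707 and 715 normalized counts in THOC5 osteogenic, 686 and 693 in THOC5 growth, 534 and 607 in GFP osteogenic and 720.2 and 746 in GFP growth libraries. It fell in GFP cells (-0.36 ± 0.09, adjusted p = 0.014). It shares 55.9% of its exon bases with Gm26669, so without strand its reads are uncertain. None of the falls of Zfp36, Zfp36l1 and Smg6 in GFP cells passed when libraries were scaled to their totals, though none changed sign. Zfp36l2 had a change of 0.01 ± 0.08 in GFP cells and passed in no contrast.

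**Figure D4:**
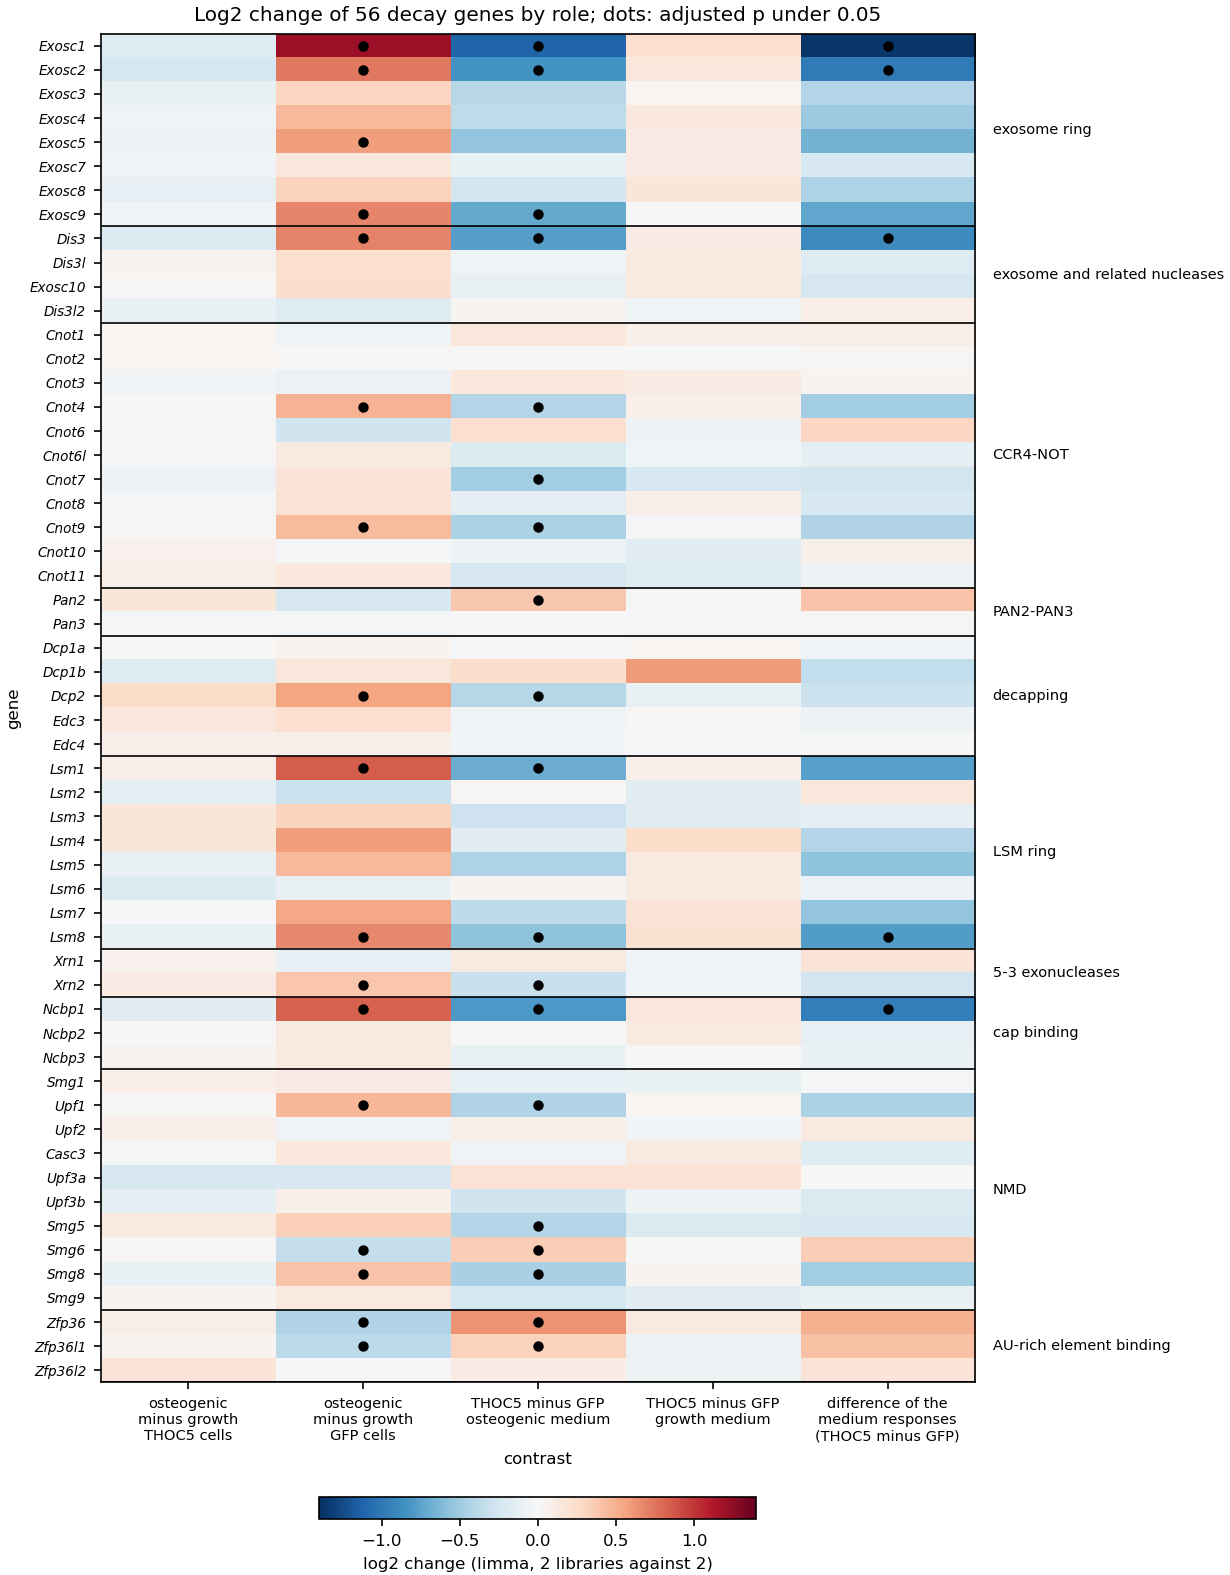
Log2 change (colour) of 56 of the 57 decay genes (rows, by role) in 5 contrasts (columns), with a dot where the limma adjusted p is under 0.05. Dots fill 17 cells of the GFP medium response, 19 of THOC5 minus GFP in osteogenic medium and 5 of the difference of the responses, and none of the remaining columns.

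Levels between genes were compared per length, as normalized counts per kilobase of the principal transcript. Isoforms of other lengths would shift these levels. Averaged over the 8 libraries, Zfp36l2 was highest at 851 and Dcp1b lowest at 23.8 per kilobase. Zfp36l2 stood at 912 ± 15.4 in THOC5 osteogenic, 802 ± 14.2 in THOC5 growth, 847 ± 34.1 in GFP osteogenic and 844 ± 30.9 in GFP growth libraries (SD, n = 2), and Zfp36l1 and Zfp36 followed within that family at 226 and 170.1 per kilobase. Among the deadenylase nucleases the order was Cnot6 at 683, Cnot8 at 293, Cnot7 at 196 and Cnot6l at 66.6 per kilobase. Gm18860 matches 760 bases of Cnot8 (36.2% of its transcript) with 97.8% identity, so reads from it could be counted for either. The scaffold Cnot1 lay at 339. Dis3 and Exosc10 stood at 78.0 ± 3.92 and 173 ± 5.17 per kilobase in THOC5 osteogenic libraries, and at 133 ± 8.79 and 186 ± 26.3 in GFP osteogenic libraries. The ring subunits ran from 60.7 (Exosc5) to 146 (Exosc9) per kilobase. Exosc7, next below Exosc9 on average, stood at 143 ± 11.3, against 124 ± 1.20 for Exosc9, in THOC5 osteogenic libraries and at 152 ± 1.69, against 205 ± 22.4 for Exosc9, in GFP osteogenic libraries, so their order was not the same in each group. Xrn2, at 357, lay above Xrn1, at 151. Of the decapping genes Dcp2 was highest at 209.9, and of the LSM genes Lsm8 was highest at 215 and Lsm6 lowest at 40.5. The replicates of a group differed by a median of 0.11 to 0.14 on the log2 scale over the members, against 0.18 to 0.23 over all genes tested.

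**Figure D5:**
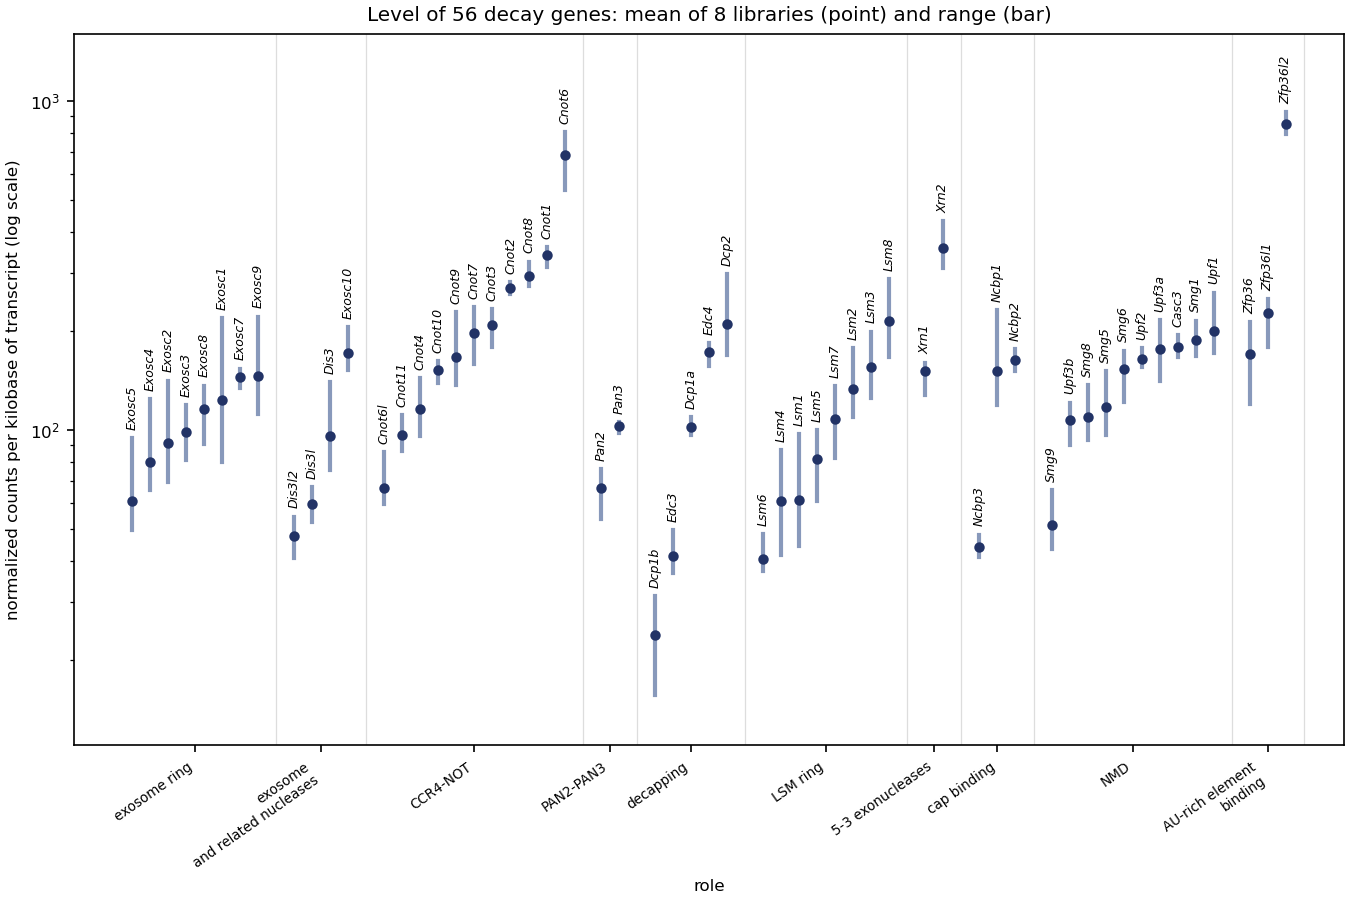
Normalized counts per kilobase of transcript (y axis, log scale) of 56 of the 57 decay genes, by role (x axis), as the mean of 8 libraries (point) and the range over them (bar). Zfp36l2 is highest at 851 and Dcp1b lowest at 23.8.

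Partners of the decay machinery outside the 57 were counted from lists. The lists hold few genes, and their counts stand beside 20.8% of all genes called in the GFP response, or 38.0% with the filter of 10 counts. Of 15 measured exosome cofactors, 5 rose and 1 fell in GFP cells. Tent4b (PAPD5), the poly(A) polymerase that tags nuclear RNA for the exosome, had 413 and 393 normalized counts in THOC5 osteogenic, 449 and 391 in THOC5 growth, 1029 and 921 in GFP osteogenic and 461 and 452 in GFP growth libraries, a rise of 1.09 ± 0.10 in GFP cells (adjusted p = 3.4e-05). Mtrex (MTR4), the nuclear exosome helicase, rose by 0.42 ± 0.09 and Wdr61 (SKI8), of the cytoplasmic SKI complex, by 0.53 ± 0.12, while Skiv2l, the SKI helicase, fell by 0.42 on the log2 scale (adjusted p = 0.0084). Of 17 deadenylation partners 4 rose and 3 fell. Noct, a circadian gene of the deadenylase fold, Tob2 and Btg1, adaptors of CCR4-NOT, rose by 0.82 ± 0.10, 0.47 ± 0.09 and 0.53 ± 0.12, and Tnks1bp1, a CCR4-NOT-associated protein, fell by 0.52 on the log2 scale (adjusted p = 0.00059).

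Of 10 decapping partners 1 rose and 2 fell in GFP cells: Lsm14b, an RNA granule protein, by 0.39 ± 0.09, Ddx6, the decapping helicase, by -0.29 ± 0.09, and Nudt16, a nuclear decapping enzyme, by -0.69 ± 0.18. Eif4enif1 (4E-T) was lower in THOC5 than in GFP osteogenic libraries (-0.26 ± 0.08, adjusted p = 0.047). Of 12 NMD and exon junction partners 6 rose and 1 fell, with a median of 0.36, beside 10.3% of all genes higher and 10.6% lower, or 18.8% and 19.2% with the filter of 10 counts. Etf1, the release factor, rose by 0.54 ± 0.11, Magoh, an exon junction core protein, by 0.45 ± 0.12, Ruvbl2, an ATPase that acts on the SMG1 complex, by 0.60 ± 0.13 and Rnps1, a peripheral exon junction protein, by 0.44 ± 0.10. Of 10 further proteins that bind AU-rich elements or stem-loops, 1 rose and 1 fell. Zc3h12a (regnase-1), an endonuclease for cytokine mRNAs, had 659 and 742 normalized counts in THOC5 osteogenic, 619.8 and 688 in THOC5 growth, 297 and 307 in GFP osteogenic and 633 and 689.9 in GFP growth libraries. It fell by 1.13 on the log2 scale in GFP cells (-1.13 ± 0.10, adjusted p = 2.7e-05), the opposite direction to Elavl1 (HuR), which stabilizes AU-rich mRNAs and rose by 0.59 ± 0.10 (adjusted p = 0.0015). Zc3h12c, of the same family as Zc3h12a, was lower in THOC5 than in GFP osteogenic libraries (-0.45 ± 0.11, adjusted p = 0.016).

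Transcripts that these pathways are known to degrade were counted in the same way. Of all genes tested 10.3% were higher and 10.6% lower in the GFP response, or 18.8% and 19.2% with the filter of 10 counts, and the lists were chosen with earlier results of these data known. Of 12 measured AU-rich transcripts 7 rose and 1 fell in GFP cells, with a median of 0.58. Ptgs2 (cyclooxygenase-2) had 2116 and 1803 normalized counts in THOC5 osteogenic, 1667 and 1475 in THOC5 growth, 7076 and 6304 in GFP osteogenic and 1948 and 2381 in GFP growth libraries. It rose by 1.63 ± 0.12 (adjusted p = 9.1e-06), the chemokine Ccl2 by 1.17 ± 0.10, the urokinase receptor Plaur by 1.00 ± 0.15 and the cytokine Lif by 0.65 ± 0.13. Of 10 transcripts known to be NMD-sensitive 7 rose and none fell, with a median of 0.95, beside the same shares of all genes. Gas5, a snoRNA host, had 1272 and 1349.8 normalized counts in THOC5 osteogenic, 1431 and 1406 in THOC5 growth, 2529 and 2142 in GFP osteogenic and 1370.5 and 1252 in GFP growth libraries, and rose by 0.83 ± 0.10 (adjusted p = 0.00015). The snoRNA hosts Snhg12 and Snhg1 rose by 1.12 ± 0.16 and 1.02 ± 0.20, and Gadd45a, a stress-induced gene, by 1.25 ± 0.24. Transcript levels do not separate synthesis from decay, and decay rates were not measured.

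At an adjusted p under 0.05, the authors' deposited table called 15 of the 57 members in the GFP response, 12 higher and 3 lower. In all it called 3798 of its 27249 genes there. For THOC5 against GFP in osteogenic medium it called 18 members, 3 higher and 15 lower, and 4182 genes in all. How many genes the authors tested was not counted here. For the THOC5 response and for THOC5 against GFP in growth medium, the authors' deposited table called 0 members, among 149 genes and 1 gene called in all.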

How the data were processed

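Libraries of poly(A) RNA were made with TruSeq V2, per the labels' protocols; that kit does not mark strand, so overlapping and antisense genes cannot be separated. The deposited table gives each gene a signal, its reads over a size factor of the library; multiplying by that factor gave whole reads (within 1e-06) for 100% of values. The authors' log2 changes and adjusted p-values for 4 comparisons stand in the same deposited table, per the file headers. FastQC, Bowtie2, MACS2, SAMtools and mm10 are named without roles, per the submitters' processing notes; no counting tool or annotation was stated in the sources used here. RNA immunoprecipitation data were not analysed here.

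limma 3.58.1 (R 4.3.3, trend option) was fitted to log2(normalized count + 1) of every gene reaching 1 in at least 2 libraries, with 4 group means and no block. The 5 contrasts were adjusted by Benjamini-Hochberg over all genes tested, at 0.05. Log2 changes carry their SE for 2 libraries against 2. Fold changes on this scale understate low genes. edgeR 4.0.16 and DESeq2 1.42.0 on the recovered reads were alternatives, beside other pseudocounts, filters and scalings, a replicate block, the 4 libraries of a contrast alone, no trend option and each library left out. Having 2 libraries a group limits the precision, p-values measure the spread between libraries, which may be technical, and a count of 0 allows 3 reads, or 2.59 to 3.99 normalized counts, for counting error only. 0 per-sample columns went unused.

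Of the members, 1 enters the counts but is not reported singly here. Members and lists were chosen with earlier results of these data known. Every member past the threshold in any contrast and a core of pathway genes are named; of each partner and substrate list up to 4 genes past the threshold with the smallest p are named. Positions and lengths are from GENCODE M21, promoters from RefSeq.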

Additional observations from a re-analysis of the deposited data

Results flagged for a closer look

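In all, 5 decay genes responded differently to osteogenic medium in THOC5 and in GFP cells, by the limma test of the difference itself, adjusted over all genes tested. The differences, THOC5 response minus GFP response on the log2 scale with 2 libraries a group, were -1.36 for Exosc1, -0.99 for Exosc2, -0.97 for Ncbp1, -0.89 for Dis3 and -0.78 for Lsm8. Each had a higher level in both GFP osteogenic libraries than in the other 6, and none of the 5 was called in the THOC5 response or between the cells in growth medium. All 5 lost the call without the trend option and without either GFP growth library. The share called, 8.77% of the members, is near the 9.22% of all genes.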

How the results depend on the processing

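Each of the 41 calls of a member kept its sign under every alternative run, which were 19 for the pairwise contrasts and 18 for the difference of the responses. Of 774 values under alternatives, 166 missed the threshold. In the GFP response 5 of 17 calls (Exosc1, Exosc2, Dis3, Lsm8 and Ncbp1) passed in every setting, in THOC5 against GFP in osteogenic medium 4 of 19 (Exosc1, Exosc2, Dis3 and Ncbp1), and in the difference of the responses 0 of 5. In the GFP response the 17 called members became 5 without the trend option and 11 with the 4 libraries alone, and ranged from 7 to 15 when 1 library was left out. In THOC5 against GFP in osteogenic medium the 19 became 5 without the trend option and ranged from 4 to 19 when 1 library was left out. In the difference of the responses the 5 became 10 with the filter of 10 counts, 9 scaled to library totals, 8 by edgeR, 8 with the replicate block and 0 without the trend option, and ranged from 0 to 7 when 1 library was left out. A group left with 1 library is assumed to vary like the others. The cause of these moves was not tested, apart from the fewer libraries or genes that each setting has by construction. The other 2 contrasts gave 0 members under every setting. Over all genes, 4698, 4963, 2082, 122 and 1 were called (GFP response, THOC5 against GFP in osteogenic medium, difference of the responses, THOC5 response, THOC5 against GFP in growth medium); these became 2154, 2200, 172, 11 and 99 without the trend option, and as few as 2067, 1987, 0, 8 and 0 when 1 library was left out. With any gene above 0 tested, the difference gave 1122 and the THOC5 response 37; edgeR gave 4 in growth medium.

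With the replicate number as a block the 17, 19 and 5 calls became 18, 21 and 8. The labels give the replicates a shared number and nothing else that pairs them. Over 10655 genes the correlations of replicate differences between groups ran from -0.19 to 0.40, the highest between the growth libraries of THOC5 and GFP cells. Whether same-numbered growth libraries share a culture or day was not tested. Genes under about 3 reads cannot be told from 0 at this depth, and no member was that low.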
